A study of Mus musculus with 6 samples.

Results

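Complex I is the NADH:ubiquinone oxidoreductase of the mitochondrial respiratory chain, and the mRNAs of its subunits were followed here as 44 of the 21741 gene symbols in the count tables. Members were taken by symbol: the numbered Ndufa, Ndufb, Ndufc, Ndufs and Ndufv genes except Ndufa4, with Ndufab1 and the mtDNA-encoded mt-Nd genes added. The rule itself uses symbols and no measured values, although the set was picked with earlier results of these data known. Of the members, 37 are nuclear genes, spread over 16 chromosomes, and 7 are encoded in mtDNA.

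Complex I passes electrons from NADH to ubiquinone and pumps protons across the inner mitochondrial membrane, and in heart muscle it feeds much of the electron flow that drives ATP synthesis. It is an L-shaped enzyme built from separately assembled modules. The N module oxidises NADH and the Q module reduces ubiquinone, and together they form the arm in the matrix. The ND1, ND2, ND4 and ND5 modules form the membrane arm, each around subunits that are translated inside the mitochondrion. Core subunits carry the catalysis and are conserved from bacteria, whereas accessory subunits surround them. Because its subunits come from both genomes, the enzyme depends on nuclear and mitochondrial transcripts at the same time.

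RNA was sequenced in 6 libraries of primary mouse cardiomyocytes from heart. In 3 of them the cells had received an adenovirus for ABHD11 (Adv-ABHD11, labelled as overexpression) and in 3 the control adenovirus Adv-NC (labelled WT), and every culture had been kept in hypoxia for 24 h. ABHD11 is a mitochondrial hydrolase, and the title of the series ties it to mtDNA transcription, to mitochondrial function and to ferroptosis. The comparison therefore asked how subunit mRNAs of both genomes differed with the ABHD11 virus in hypoxic cells. The sources used here did not give the strain, the age, the number of animals, the viral promoter or the species of the transgene. Nor was it stated whether replicates were separate cultures or animals, so p-values measure only the spread between these libraries, which may be technical. All libraries carried the same batch label.

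Library totals ran from 16292756 to 20338700 counts. The level of mouse Abhd11 was 38.0, 42.5 and 36.2 CPM in the Adv-ABHD11 libraries, against 31.5, 35.2 and 33.9 CPM in the Adv-NC libraries, with no overlap between the groups, but the 1.16-fold difference did not pass the test (log2 fold change 0.21 ± 0.10, adjusted p = 0.0765, edgeR quasi-likelihood test with Benjamini-Hochberg adjustment). Log2 fold changes are given ± SE. CPM are counts scaled to a common library size, with TMM factors. All 12 cardiomyocyte markers were detected in both groups and their summed level was 39561 to 42241 CPM with Adv-ABHD11 and 21398 to 22882 CPM with Adv-NC. All 12 passed as higher, and their median log2 fold change was 0.98. Other marker lists differed to varying degrees. Over all 12790 tested genes, 29.9% passed as higher and 29.5% as lower. Of 7 markers of lung epithelium, 7 passed as higher and 6 were at 0 in all Adv-NC libraries, and the sum of the 7 was 133 to 145 CPM with Adv-ABHD11 and 0 to 0.0513 CPM with Adv-NC. Of 5 red blood cell markers, Hba-a1 and Alas2 were at 0 in all Adv-NC libraries, 4 of the 4 tested passed as higher, and the sum of the 5 was 22.8 to 25.9 CPM with Adv-ABHD11 and 0.313 to 0.647 CPM with Adv-NC. Smooth muscle markers passed as higher in 5 of 7 cases (summed level 3980.3 to 4541 CPM with Adv-ABHD11 and 2698 to 3234 CPM with Adv-NC) and endothelial markers in 6 of 8 (542 to 586 CPM with Adv-ABHD11 and 369.8 to 405 CPM with Adv-NC). Epicardial markers were lower in 6 of 7 cases, with sums of 126 to 141 CPM with Adv-ABHD11 and 264 to 293 CPM with Adv-NC. Fibroblast markers were higher in 2 and lower in 4 of 8 cases, with overlapping sums of 10972 to 14741 CPM with Adv-ABHD11 and 13835 to 17085 CPM with Adv-NC. Leukocyte markers were higher in 2 and lower in 3 of 8 cases, near the shares over all tested genes. Their sums overlapped, at 70.9 to 77.7 CPM with Adv-ABHD11 and 72.1 to 93.6 CPM with Adv-NC. The part of these marker differences in the results below was not tested.

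Complex I mRNAs were higher with Adv-ABHD11 almost throughout. All 44 members were abundant enough to be tested, 42 of them passed as higher and 0 as lower at an adjusted p under 0.05, against 29.9% of the 12790 tested genes higher and 29.5% lower. In all 42 every Adv-ABHD11 library lay above every Adv-NC library, which held for 31.5% of tested genes. The nuclear members rose in 36 of 37 cases with a median log2 fold change of 0.57 and a range of 0.21 to 0.95, so that none reached a 2-fold difference. The mtDNA-encoded members rose in 6 of 7 cases with a median of 1.06, and 4 of them were at least 2-fold higher. After removal of a trend on the GC content and length of transcripts, the mtDNA median was 0.498, level with the nuclear median of 0.503 in the same fit, and 2 mtDNA-encoded members were at least 2-fold higher. The median over all tested genes was 0.02. In bulk libraries, more cells of a type and more RNA per cell cannot be told apart.

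**Figure D1:**
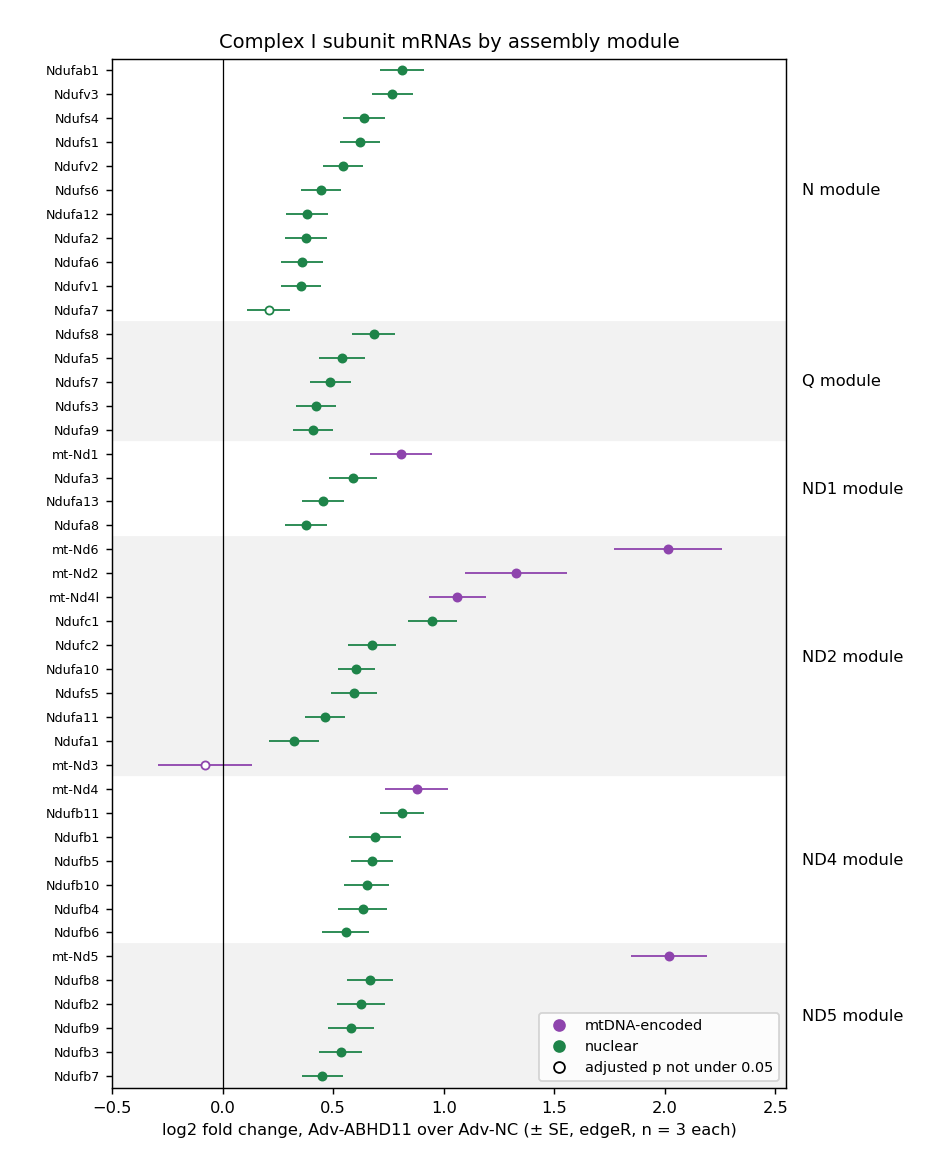
Log2 fold change of complex I subunit mRNAs (43 of 44 members), Adv-ABHD11 over Adv-NC (horizontal axis), grouped by assembly module (rows), with bars for the SE of the edgeR estimate from 3 libraries per group. The nuclear members lie between 0.21 and 0.95, mt-Nd5 and mt-Nd6 lie at 2.02, and the open points, Ndufa7 and mt-Nd3, did not pass the test.

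Upper-quartile scaling moved the median of all genes to 0.12, and with it the nuclear median to 0.67 and the mtDNA median to 1.17. The nuclear members together took 0.955%, 1.05% and 0.927% of all counts in the Adv-ABHD11 libraries, against 0.635%, 0.684% and 0.612% in the Adv-NC libraries. The mtDNA-encoded members took 0.922%, 1.63% and 1.29% with Adv-ABHD11, against 0.533%, 0.580% and 0.516% with Adv-NC. Both shares were higher in every Adv-ABHD11 library. Set against the sum of the cardiomyocyte markers, however, the nuclear sum was 0.220, 0.262 and 0.225 with Adv-ABHD11 and 0.273, 0.321 and 0.299 with Adv-NC. That ratio was thus lower in every Adv-ABHD11 library, and the marker sum differed by more than the subunit sum did.

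The N module holds the site where NADH is oxidised. Its 11 members are all nuclear, 10 of them rose, and the median log2 fold change was 0.44. Ndufv1 (gene at chr19:4007384-4012806, GRCm38), the flavin-bearing subunit that binds NADH, had 515, 567 and 482 CPM in the Adv-ABHD11 libraries, against 409, 428 and 387 CPM in the Adv-NC libraries (log2 fold change 0.35 ± 0.09, adjusted p = 0.00293). Its partner Ndufv2, an iron-sulfur protein, had 322, 379 and 334 CPM in the Adv-ABHD11 libraries, against 232, 254 and 223 CPM in the Adv-NC libraries (log2 fold change 0.54 ± 0.09, adjusted p = 6.31e-05). Ndufs1, the largest subunit, which carries several iron-sulfur clusters, had 156, 149 and 151 CPM in the Adv-ABHD11 libraries, against 107, 101 and 88.7 CPM in the Adv-NC libraries (log2 fold change 0.62 ± 0.09, adjusted p = 1.16e-05). For all of these core subunits the lowest Adv-ABHD11 library exceeded the highest Adv-NC library, and Ndufs1 had the narrowest Adv-ABHD11 values of the 3.

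The accessory subunits of the N module spread more widely. Ndufab1, the mitochondrial acyl carrier protein, which also takes part in fatty acid synthesis and sits in the membrane arm too, led the module with 469, 589.5 and 478 CPM in the Adv-ABHD11 libraries, against 279, 307 and 289 CPM in the Adv-NC libraries (log2 fold change 0.81 ± 0.10, adjusted p = 1.67e-06). Ndufv3, a small subunit beside the flavin site, had 108, 122 and 109 CPM in the Adv-ABHD11 libraries, against 59.7, 68.5 and 70.8 CPM in the Adv-NC libraries (log2 fold change 0.77 ± 0.09, adjusted p = 1.71e-06). Both were above all Adv-NC libraries in each Adv-ABHD11 library. Ndufa7, an accessory subunit of the matrix arm, was the nuclear member with the smallest difference, at 159, 181 and 147 CPM in the Adv-ABHD11 libraries, against 129, 153 and 140.4 CPM in the Adv-NC libraries (log2 fold change 0.21 ± 0.10, adjusted p = 0.0753). Its groups overlapped, since Adv-ABHD11 replicate 3 lay below Adv-NC replicate 2. Leaving out Adv-ABHD11 replicate 3 made Ndufa7 pass (log2 fold change 0.27, adjusted p = 0.0364), as did upper-quartile scaling (0.31, adjusted p = 0.00893), scaling by library size only (0.25, adjusted p = 0.0223) and the replicate block (adjusted p = 0.0278). The other accessory members Ndufs4, Ndufs6, Ndufa12, Ndufa2 and Ndufa6 rose by 0.36 to 0.64 on the log2 scale. Ndufs4, whose loss in mice gives a model of Leigh syndrome, was at the upper end of these with 85.6 ± 8.58 CPM with Adv-ABHD11 and 54.9 ± 2.91 CPM with Adv-NC (mean ± SD, n = 3 each).

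The Q module takes the electrons to ubiquinone, and the 5 of its members reported here all rose. Ndufs7, which holds the last iron-sulfur cluster before ubiquinone, had 239, 244 and 221 CPM in the Adv-ABHD11 libraries, against 158, 187 and 157 CPM in the Adv-NC libraries (log2 fold change 0.49 ± 0.09, adjusted p = 0.000203). The groups were clearly apart, and Adv-ABHD11 replicate 2 was the highest library. Ndufs8, an iron-sulfur protein that relays the electrons, showed the largest rise of these, with 311, 357 and 284 CPM in the Adv-ABHD11 libraries, against 184, 215 and 193 CPM in the Adv-NC libraries (log2 fold change 0.68 ± 0.10, adjusted p = 1.18e-05). Ndufs3, a core subunit without a cofactor, had 310.1, 361 and 303 CPM in the Adv-ABHD11 libraries, against 236, 255 and 236 CPM in the Adv-NC libraries (log2 fold change 0.42 ± 0.09, adjusted p = 0.000719). Ndufa9, a nucleotide-binding accessory subunit at the junction of the arms, showed the smallest rise, with 289, 339.9 and 303 CPM in the Adv-ABHD11 libraries, against 226, 245 and 232 CPM in the Adv-NC libraries (log2 fold change 0.41 ± 0.09, adjusted p = 0.000742). No library of one group reached into the range of the other for any of the 3. Ndufa5, the remaining accessory member, rose by 0.54.

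In the ND1 module, at the foot of the matrix arm, all 3 nuclear members rose, with a median of 0.45. Ndufa3, a small membrane subunit, had 62.0, 70.5 and 55.6 CPM in the Adv-ABHD11 libraries, against 38.1, 47.0 and 39.8 CPM in the Adv-NC libraries (log2 fold change 0.59 ± 0.11, adjusted p = 0.000148). Ndufa13, a membrane-spanning subunit also described as a cell death regulator, had 245, 278 and 219 CPM in the Adv-ABHD11 libraries, against 173, 192 and 176 CPM in the Adv-NC libraries (log2 fold change 0.45 ± 0.10, adjusted p = 0.000583). Ndufa8, a disulfide-bonded subunit on the intermembrane side, had 196, 218 and 172 CPM in the Adv-ABHD11 libraries, against 143, 158 and 149.9 CPM in the Adv-NC libraries (log2 fold change 0.38 ± 0.10, adjusted p = 0.00255). Adv-ABHD11 replicate 3 was the lowest Adv-ABHD11 library for each of them and still lay above all Adv-NC libraries.

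The ND2 module held both the widest and some of the narrowest nuclear differences, with all 6 nuclear members higher and a median of 0.60. Ndufc1 (gene at chr3:51404677-51408988), a small membrane subunit, showed the largest rise of all nuclear members, with 88.4, 105 and 77.8 CPM in the Adv-ABHD11 libraries, against 41.8, 50.9 and 47.7 CPM in the Adv-NC libraries (log2 fold change 0.95 ± 0.11, adjusted p = 9.69e-07). Its neighbour in the enzyme, Ndufc2, had 124, 158 and 127 CPM in the Adv-ABHD11 libraries, against 77.2, 96.8 and 82.3 CPM in the Adv-NC libraries (log2 fold change 0.67 ± 0.11, adjusted p = 3.65e-05). The lowest Adv-ABHD11 library stood well clear of the Adv-NC libraries for both. With the GC and length trend removed, Ndufc1 was at 0.644 and no longer the largest, below Ndufv3 at 0.915 and several other nuclear members. Ndufa1, an X-linked subunit in which human mutations cause complex I deficiency, had 36.1, 42.4 and 43.4 CPM in the Adv-ABHD11 libraries, against 27.7, 35.4 and 34.3 CPM in the Adv-NC libraries (log2 fold change 0.32 ± 0.11, adjusted p = 0.0195). The groups of Ndufa1 were separated by less than 1 CPM, between Adv-ABHD11 replicate 1 and Adv-NC replicate 2, and its call was lost without Adv-ABHD11 replicate 3 (adjusted p = 0.0903) or Adv-NC replicate 1 (adjusted p = 0.0775). With the GC and length trend removed it was at 0.03 and not called (adjusted p = 0.81). Ndufa10, related to nucleoside kinases, Ndufs5 and Ndufa11, a subunit at the contact with complex III, rose by 0.60, 0.60 and 0.46.

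The ND4 module had the highest median of the nuclear modules, 0.66, and its 6 nuclear members rose by 0.56 to 0.81. Ndufb11 (gene at chrX:20615326-20617619), an X-linked subunit in which human mutations cause histiocytoid cardiomyopathy, had 561, 644 and 507 CPM in the Adv-ABHD11 libraries, against 309.5, 349 and 318 CPM in the Adv-NC libraries (log2 fold change 0.81 ± 0.10, adjusted p = 1.77e-06). Ndufb1, a short single-span subunit, had 58.8, 76.8 and 60.2 CPM in the Adv-ABHD11 libraries, against 36.3, 46.7 and 38.4 CPM in the Adv-NC libraries (log2 fold change 0.69 ± 0.12, adjusted p = 7.09e-05). Ndufb6 showed the smallest rise of the module, with 149, 192 and 149.9 CPM in the Adv-ABHD11 libraries, against 101, 122 and 111 CPM in the Adv-NC libraries (log2 fold change 0.56 ± 0.11, adjusted p = 0.000212). All 3 were separated between groups, with Adv-ABHD11 replicate 2 on top. Ndufb4, Ndufb5 and Ndufb10, further membrane-arm accessory subunits, rose by 0.63, 0.67 and 0.65.

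At the far end of the membrane arm, all 5 nuclear members of the ND5 module rose, with a median of 0.58. Ndufb8, often used on immunoblots to follow complex I, had 776, 943 and 716 CPM in the Adv-ABHD11 libraries, against 489.6, 542 and 501 CPM in the Adv-NC libraries (log2 fold change 0.67 ± 0.10, adjusted p = 2.83e-05). Per kb of transcript it had the highest level of the nuclear members, 1193 CPM per kb with Adv-ABHD11 and 751 CPM per kb with Adv-NC, and Ndufs4 had the lowest, 50.4 and 32.3 CPM per kb. Ndufb2, a small membrane subunit, had 129, 144 and 119.8 CPM in the Adv-ABHD11 libraries, against 73.0, 99.2 and 82.3 CPM in the Adv-NC libraries (log2 fold change 0.63 ± 0.11, adjusted p = 7.87e-05). Ndufb7, a disulfide-bonded subunit on the intermembrane side, showed the smallest rise, with 149.7, 176 and 145 CPM in the Adv-ABHD11 libraries, against 109.8, 119 and 116 CPM in the Adv-NC libraries (log2 fold change 0.45 ± 0.09, adjusted p = 0.000422). None of these overlapped between the groups, and Ndufb9 and Ndufb3 rose by 0.58 and 0.53.

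Across modules, the nuclear core subunits had a median log2 fold change of 0.55 and the 30 nuclear accessory subunits one of 0.59. The 17 members of the matrix arm had a median of 0.49 and the 20 nuclear members of the membrane arm one of 0.60. Summed CPM of the nuclear membrane arm over that of the matrix arm was 1.08, 1.10 and 1.03 with Adv-ABHD11 and 0.981, 1.01 and 1.018 with Adv-NC, a 1.07-fold difference without overlap. This ratio was chosen after the values had been seen. Its two-sided exact permutation p was 0.1, the smallest that 3 libraries against 3 allow, and 0.16 after Benjamini-Hochberg adjustment over the 8 ratios compared. Adv-ABHD11 replicate 2 was the highest Adv-ABHD11 library for 35 of 37 nuclear members, and Adv-NC replicate 2 the highest Adv-NC library for 34 of 37. How many of all tested genes were highest in these libraries was not counted, so this is not shown to be particular to the members. The coefficient of variation of a nuclear member had a median of 10.5% with Adv-ABHD11 and 6.55% with Adv-NC.

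**Figure D2:**
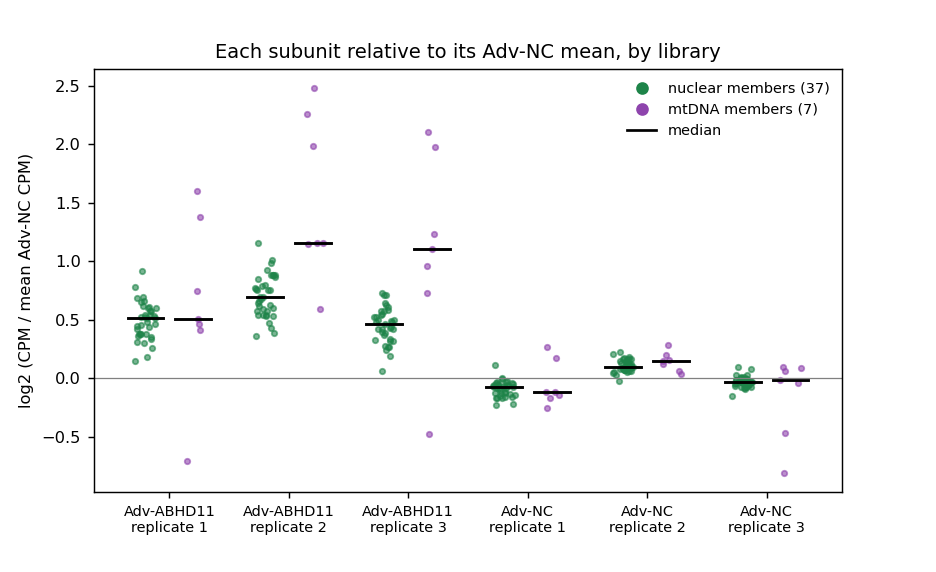
Log2 of each member's CPM over its own Adv-NC mean (vertical axis) in each of the 6 libraries, with green points for the 37 nuclear and purple points for the 7 mtDNA-encoded members and black lines for medians. Nuclear medians are 0.51, 0.70 and 0.47 in the Adv-ABHD11 libraries and -0.07, 0.10 and -0.03 in the Adv-NC libraries, while the mtDNA points of the Adv-ABHD11 libraries run from -0.71 to 2.48.

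The mtDNA-encoded subunits are all core subunits of the membrane arm. They differed among themselves far more than the nuclear members did. Transcripts of mt-Nd5 and mt-Nd6 rose about 4-fold, mt-Nd2 and mt-Nd4l more than 2-fold, mt-Nd1 and mt-Nd4 less than 2-fold, and mt-Nd3 did not pass the test. With the trend on GC content and length removed, mt-Nd5 and mt-Nd6 were at log2 fold changes of 1.69 and 1.35, mt-Nd2 at 0.82, mt-Nd4l at 0.50, mt-Nd4 at 0.46 and mt-Nd1 at 0.42, all still called higher, and mt-Nd3 passed as lower at -0.98 (adjusted p = 5.61e-09). The GC content of the mtDNA-encoded members was 33.0% to 41.1%, with mt-Nd3 the lowest. That is toward the low edge of the tested genes, which ran from 31.9% to 72.8% with a median of 50.9%. The adjusted p-values of that fit do not include the uncertainty of the trend itself. Coordinates below are on chrM of GRCm38.

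The mt-Nd5 mRNA (chrM:11742-13565, plus strand), for the proton-pumping subunit at the tip of the membrane arm, had 2487, 3934 and 3535 CPM in the Adv-ABHD11 libraries, against 925, 943 and 591 CPM in the Adv-NC libraries (log2 fold change 2.02 ± 0.17, adjusted p = 1.64e-08). The mt-Nd6 mRNA (chrM:13552-14070), for a membrane subunit and the only mRNA encoded on the opposite strand of mtDNA, had 545, 1171 and 823 CPM in the Adv-ABHD11 libraries, against 253, 256 and 119.7 CPM in the Adv-NC libraries (log2 fold change 2.02 ± 0.24, adjusted p = 1.56e-06). In both the lowest Adv-ABHD11 library was more than 2-fold above the highest Adv-NC library, and Adv-NC replicate 3 was the lowest of its group. With robust dispersion estimates in edgeR, chosen after the data were seen, both calls held with weaker adjusted p-values, 1.1e-05 for mt-Nd5 and 0.0206 for mt-Nd6. Their ratio did not separate the groups: mt-Nd6 over mt-Nd5 was 0.219, 0.298 and 0.233 with Adv-ABHD11 and 0.273, 0.271 and 0.202 with Adv-NC. The genes run towards each other and share 14 bases at their ends. The last 30 bases of each gene are shown here on its own strand (GENCODE M21 transcripts). The shared bases are in capitals because reads there match both genes if the strand is ignored.
mt-Nd5: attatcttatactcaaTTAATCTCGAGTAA
mt-Nd6: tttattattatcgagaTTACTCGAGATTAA
The first lies at chrM:13536-13565 (plus strand) and the second at chrM:13552-13581 (minus strand). Whether counting used the strand was not stated in the sources used here. If it did not, antisense reads cannot be told apart from a gene's own reads over the whole of either gene. Whether the rises of mt-Nd5 and mt-Nd6 are separate was not tested.

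The mt-Nd2 mRNA (chrM:3914-4951), for a proton-pumping subunit, had 1507, 4193 and 2278 CPM in the Adv-ABHD11 libraries, against 979, 1152 and 1051 CPM in the Adv-NC libraries (log2 fold change 1.33 ± 0.23, adjusted p = 8.15e-05). All Adv-ABHD11 libraries were above all Adv-NC libraries, replicate 2 by far the most. Leaving that library out put mt-Nd2 at 0.84, under 2-fold, and with robust dispersion estimates, chosen after the data were seen, the call was lost (adjusted p = 0.0518). The mt-Nd3 mRNA (chrM:9459-9806), for a subunit whose matrix loop is exposed when the enzyme is in its resting state, had 188, 462 and 220.2 CPM in the Adv-ABHD11 libraries, against 283, 339 and 299 CPM in the Adv-NC libraries (log2 fold change -0.08 ± 0.21, adjusted p = 0.762). Adv-ABHD11 replicates 1 and 3 were the lowest of the 6 libraries and replicate 2 was the highest. Without replicate 2, mt-Nd3 passed as lower (log2 fold change -0.58, adjusted p = 3.31e-05), and without replicate 1 its sign turned (0.15).

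The mt-Nd4l mRNA (chrM:9877-10173), for a small membrane subunit, had 55.0, 73.0 and 77.0 CPM in the Adv-ABHD11 libraries, against 27.4, 36.6 and 34.2 CPM in the Adv-NC libraries (log2 fold change 1.06 ± 0.13, adjusted p = 1.41e-06). The mt-Nd4 mRNA (chrM:10167-11544), for the proton-pumping subunit between mt-Nd2 and mt-Nd5, had 1585, 2650.4 and 2304 CPM in the Adv-ABHD11 libraries, against 1059, 1239 and 1264 CPM in the Adv-NC libraries (log2 fold change 0.88 ± 0.14, adjusted p = 4.42e-05). Both were separated between the groups. Leaving out either Adv-ABHD11 replicate 3 or Adv-NC replicate 1 put mt-Nd4l at 0.96, just under 2-fold. The pair is carried on a joint mRNA and their coding sequences overlap by 7 bases on the same strand, shown in capitals in the end of mt-Nd4l and the start of mt-Nd4, so that counts in this stretch have an uncertain split.
mt-Nd4l: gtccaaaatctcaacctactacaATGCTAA
mt-Nd4: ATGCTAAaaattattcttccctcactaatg
These stretches lie at chrM:10144-10173 (plus strand) and chrM:10167-10196 (plus strand). The ratio of mt-Nd4l over mt-Nd4 was 0.0347, 0.0275 and 0.0334 with Adv-ABHD11 and 0.0259, 0.0296 and 0.0271 with Adv-NC, with overlapping groups. The mt-Nd1 mRNA (chrM:2751-3707), for the subunit that closes the ubiquinone channel, had 2611, 4208 and 3139.6 CPM in the Adv-ABHD11 libraries, against 1716, 1948 and 2028 CPM in the Adv-NC libraries (log2 fold change 0.81 ± 0.14, adjusted p = 7.45e-05). Its groups did not overlap, and Adv-ABHD11 replicate 2 was the highest library.

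**Figure D3:**
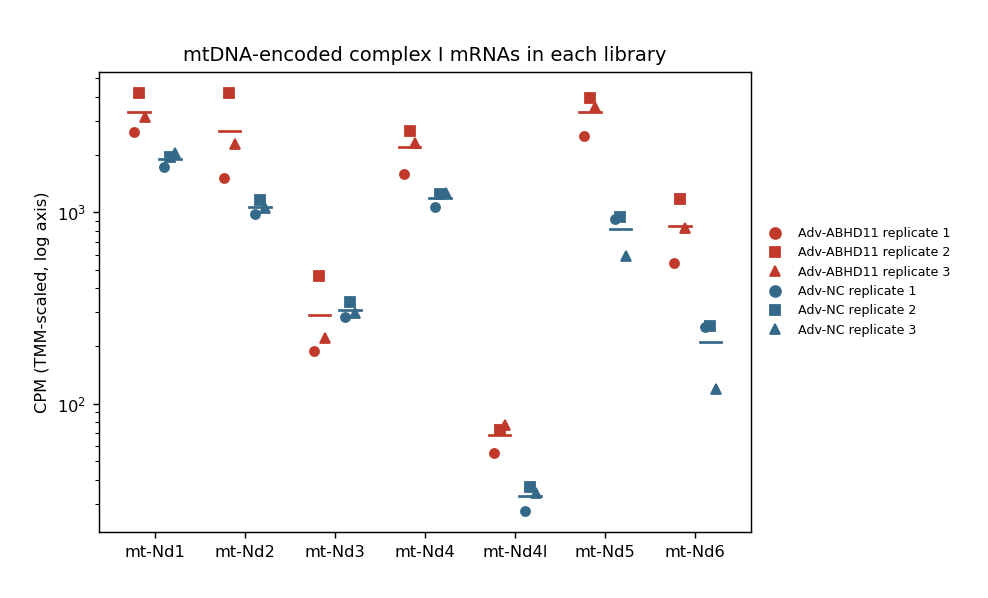
CPM on a log axis (vertical) of the 7 mtDNA-encoded subunit mRNAs (horizontal) in each library, with 1 point per library and bars for group means. For mt-Nd3 the Adv-ABHD11 points, 188, 462 and 220.2 CPM, lie on both sides of the Adv-NC points, while for the other 6 all Adv-ABHD11 points lie above all Adv-NC points.

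Adv-ABHD11 replicate 1 was the lowest Adv-ABHD11 library for all 7 mRNAs, and replicate 2 the highest for 6. The coefficient of variation had a median of 24.9% with Adv-ABHD11 and 9.50% with Adv-NC. The order of the mRNAs by level per kb also differed. It lists mt-Nd4l and mt-Nd4 apart, although they are carried on a joint mRNA. Neither their gap per kb nor that of their fold changes is therefore one between separate mRNAs. With Adv-ABHD11 the mean levels per kb were, from the highest, 3469 for mt-Nd1, 2562 for mt-Nd2, 1819 for mt-Nd5, 1631 for mt-Nd6, 1582 for mt-Nd4, 834 for mt-Nd3 and 230.0 CPM per kb for mt-Nd4l. With Adv-NC they were 1983 for mt-Nd1, 1022 for mt-Nd2, 882 for mt-Nd3, 862 for mt-Nd4, 449 for mt-Nd5, 403 for mt-Nd6 and 110.3 CPM per kb for mt-Nd4l. Neighbours such as mt-Nd6 and mt-Nd4 with Adv-ABHD11, or mt-Nd3 and mt-Nd4 with Adv-NC, differed by less than the spread between libraries.

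Ratios between mtDNA mRNAs take out what a whole library shares. The ratio of mt-Nd5 over mt-Nd4 was 1.57, 1.48 and 1.53 with Adv-ABHD11, against 0.873, 0.761 and 0.468 with Adv-NC. The ratio of mt-Nd3 over mt-Nd4 was 0.119, 0.174 and 0.0955 with Adv-ABHD11, against 0.267, 0.274 and 0.237 with Adv-NC. The groups did not overlap in either, in opposite directions. The ratio of mt-Nd2 over mt-Nd1 was 0.577, 0.996 and 0.726 with Adv-ABHD11 and 0.570, 0.592 and 0.518 with Adv-NC, where Adv-ABHD11 replicate 1 fell within the Adv-NC range. These ratios were chosen after the values had been seen and were given no test.

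**Figure D4:**
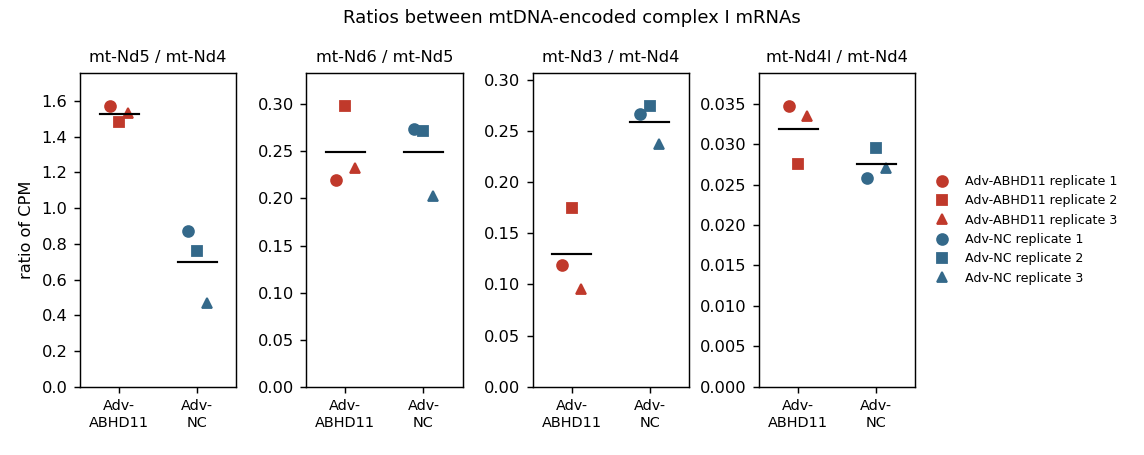
Ratio of CPM between pairs of mtDNA-encoded subunit mRNAs (vertical axes, each starting at 0) in each library, with black bars for group means. The ratio of mt-Nd5 over mt-Nd4 averages 1.53 with Adv-ABHD11 and 0.701 with Adv-NC, mt-Nd3 over mt-Nd4 averages 0.130 and 0.259, and the other pairs overlap between the groups.

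The balance between the genomes was then taken library by library as summed mtDNA CPM over summed nuclear CPM. Over all modules it was 0.965, 1.55 and 1.39 with Adv-ABHD11, against 0.840, 0.849 and 0.843 with Adv-NC. Every Adv-ABHD11 library was above every Adv-NC library, 1.51-fold on the ratio of geometric means, with replicate 1 close to the Adv-NC values (two-sided exact permutation test, p = 0.1, adjusted p = 0.16 over 8 ratios). No ratio could go below 0.1 in this design. Without mt-Nd5 and mt-Nd6 the log2 difference of this ratio was 0.31 in place of 0.60.

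By module, ND5 was the only 1 of the 4 in which the groups did not overlap. In the ND5 module the ratio was 1.66, 2.21 and 2.52 with Adv-ABHD11, against 0.974, 0.852 and 0.588 with Adv-NC, 2.67-fold without overlap (exact p = 0.1, adjusted p = 0.16). In the ND2 module, which holds mt-Nd2, mt-Nd3, mt-Nd4l and mt-Nd6, it was 2.00, 4.63 and 3.09 with Adv-ABHD11, against 2.05, 2.19 and 1.90 with Adv-NC, and the groups overlapped because replicate 1 with Adv-ABHD11 lay below replicates 1 and 2 with Adv-NC (exact p = 0.3, adjusted p = 0.343). In the ND1 module it was 5.19, 7.43 and 7.04 with Adv-ABHD11, against 4.84, 4.90 and 5.54 with Adv-NC (exact p = 0.2, adjusted p = 0.267). In the ND4 module it was 0.944, 1.31 and 1.46 with Adv-ABHD11, against 1.024, 1.05 and 1.19 with Adv-NC (exact p = 0.5, adjusted p = 0.5). In these last modules Adv-ABHD11 replicate 1 lay within or below the Adv-NC range. The N and Q modules have no mtDNA-encoded member. Their summed CPM was 2390.2, 2759 and 2357 with Adv-ABHD11 and 1711, 1868 and 1715 with Adv-NC in the N module, and 2084, 2368 and 2020.2 with Adv-ABHD11 and 1438, 1604 and 1452 with Adv-NC in the Q module.

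**Figure D5:**
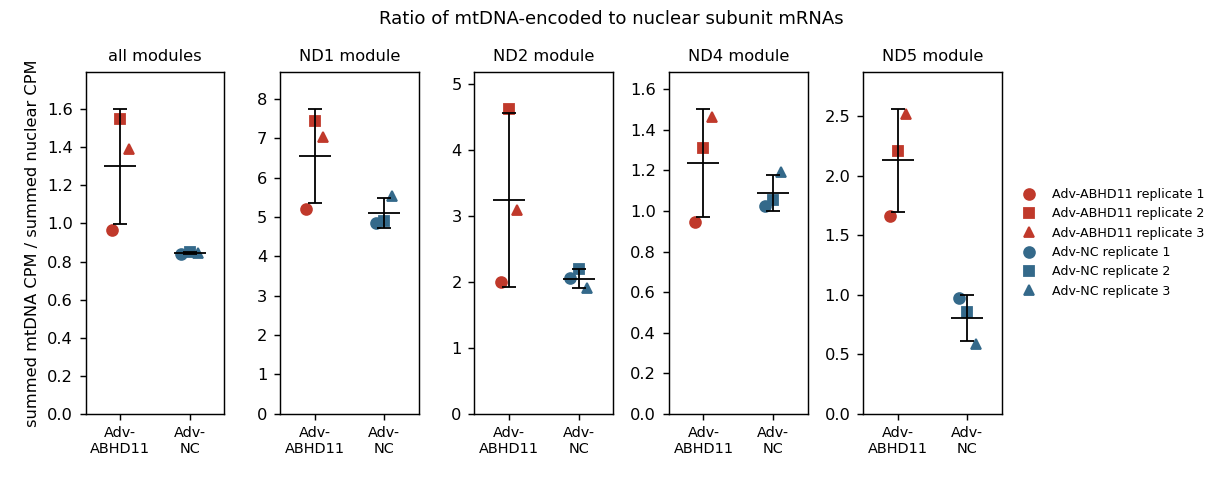
Summed mtDNA CPM over summed nuclear CPM (vertical axes, each starting at 0) over all modules and in the 4 modules with mtDNA-encoded members, with 1 point per library and bars for mean ± SD (n = 3 each). In the ND5 module the Adv-ABHD11 libraries sit at 1.66 to 2.52 and the Adv-NC libraries at 0.588 to 0.974, while the ND1, ND2 and ND4 panels overlap.

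Complex I was set beside the rest of the respiratory chain. Nuclear subunits of complexes II to V, with Ndufa4 counted in complex IV, rose in 41 of 42 cases with a median log2 fold change of 0.53. Summed nuclear complex I CPM over their sum was 0.308, 0.322 and 0.307 with Adv-ABHD11 and 0.283, 0.288 and 0.284 with Adv-NC, 1.10-fold without overlap (exact p = 0.1, adjusted p = 0.16). As a difference of mean log2 CPM it was 0.01. Of the 6 other mtDNA mRNAs 4 rose, with a median of 0.62. Summed mt-Nd CPM over their sum was 0.227, 0.269 and 0.245 with Adv-ABHD11 and 0.293, 0.294 and 0.280 with Adv-NC, lower in each Adv-ABHD11 library (exact p = 0.1, adjusted p = 0.16). The largest part of that sum is mt-Co1, a catalytic subunit of complex IV, with 26546, 39136 and 35417 CPM in the Adv-ABHD11 libraries, against 6941, 7753 and 7384 CPM in the Adv-NC libraries. On mean log2 CPM, where each mRNA counts alike, the difference turned to 0.24 higher.

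Assembly factors help to build the enzyme without staying in it. Of 20 listed, 19 were analysed, and 12 of these rose, 0 fell and 7 did not pass, with a median of 0.29. That is 63.2% of them called higher, against 29.9% of all tested genes. The number that rose was 7, or 36.8%, when Adv-ABHD11 replicate 2 was left out, and also 7 when either Adv-NC replicate 1 or Adv-NC replicate 3 was. Timmdc1, which acts on the ND1 module, had 31.8, 41.3 and 34.7 CPM in the Adv-ABHD11 libraries, against 19.5, 24.1 and 21.1 CPM in the Adv-NC libraries (log2 fold change 0.74 ± 0.12, adjusted p = 3.95e-05). Dmac1, which acts on the distal membrane arm, had 51.8, 55.2 and 46.2 CPM in the Adv-ABHD11 libraries, against 33.4, 33.9 and 34.2 CPM in the Adv-NC libraries (log2 fold change 0.59 ± 0.10, adjusted p = 4.60e-05). Both were higher in every Adv-ABHD11 library. Tmem126b, a part of the complex that assembles the ND2 module, had 15.9, 22.1 and 23.6 CPM in the Adv-ABHD11 libraries, against 11.1, 12.05 and 10.4 CPM in the Adv-NC libraries (log2 fold change 0.88 ± 0.15, adjusted p = 5.28e-05). Ndufaf3, which acts with Ndufaf4 on the early Q module, had 25.9, 28.7 and 23.7 CPM in the Adv-ABHD11 libraries, against 16.5, 15.96 and 19.0 CPM in the Adv-NC libraries (log2 fold change 0.61 ± 0.12, adjusted p = 0.000243). Neither overlapped between the groups. Ndufaf4 itself had 16.6, 23.4 and 23.8 CPM with Adv-ABHD11 and 20.6, 22.6 and 17.6 CPM with Adv-NC and did not pass (adjusted p = 0.668). Among the partners of Tmem126b, Acad9, Ecsit and Ndufaf1 rose by 0.33, 0.22 and 0.28, and Tmem186 was at -0.04 without passing. These 3 calls were close to the threshold. The Acad9 groups overlapped, since Adv-ABHD11 replicate 1 had 30.7 CPM and Adv-NC replicate 2 had 34.6 CPM, and its call was lost without Adv-ABHD11 replicate 2 (adjusted p = 0.0662), Adv-ABHD11 replicate 3 (0.161), Adv-NC replicate 1 (0.113) or Adv-NC replicate 3 (0.147) and with the GC and length trend removed (0.0574). The Ecsit call was lost in DESeq2 (adjusted p = 0.0591) and in edgeR with any library but Adv-ABHD11 replicate 3 left out (0.0639 to 0.161). It was also lost in edgeR with DESeq2 size factors (adjusted p = 0.0565) and without the filter on low counts (0.0552). The Ndufaf1 call was lost without Adv-ABHD11 replicate 2 (adjusted p = 0.063) or replicate 3 (0.0608), or without Adv-NC replicate 1 (0.0672) or replicate 3 (0.061). Foxred1, Tmem70 and Dmac2 rose by 0.32, 0.53 and 0.42, and Nubpl, which delivers iron-sulfur clusters, did not pass at 0.18.

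A pair of genes that share the name without being members differed too. Ndufa4, now placed in complex IV, had 377, 462 and 384 CPM in the Adv-ABHD11 libraries, against 214, 233 and 205 CPM in the Adv-NC libraries (log2 fold change 0.91 ± 0.10, adjusted p = 3.26e-07). Ndufa4l2, a target of the hypoxia-inducible factor that is known to lower complex I activity, had 105, 104 and 97.1 CPM in the Adv-ABHD11 libraries, against 8.58, 15.5 and 17.1 CPM in the Adv-NC libraries (log2 fold change 2.89 ± 0.16, adjusted p = 6.70e-11). The rise of Ndufa4l2, 7.42-fold, exceeded that of every member, and all cells of both groups were hypoxic.

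Promoters of the nuclear members were read from RefSeq (GRCm38.p6) as 250 bases before to 50 bases after the start, and 33 members had an entry, with 35 windows. Motifs were searched on both strands as exact letters, and no member window held more than 1 of the 4 motifs, although the GABPA motif ends in the letters with which that of YY1 begins. At least 1 motif was in 14 windows (40.0%, against 15.79% of all windows). CGCATGCG, for the respiratory gene regulator NRF1, was found in 2 windows (5.7%, against 1.87% of all 32851 windows). AAGGTCA, for the oestrogen-related receptors, was found in 3 (8.6% against 4.72%), and CCGGAAG, for GABPA, in 4 (11.4% against 8.86%), namely in Ndufb6, Ndufb7, Ndufs3 and Ndufs8. AAGATGGCG, for YY1, was found in 5 (14.3% against 1.40%). The NRF1 and oestrogen-related receptor matches are shown in 30 bases of promoter each, on the strand of the gene, with the motif or its reverse complement in capitals.
Ndufa11: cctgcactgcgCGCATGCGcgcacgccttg
Ndufa8: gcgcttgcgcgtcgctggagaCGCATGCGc
Ndufb2: gggagcagcagtAAGGTCAgccaagagcac
Ndufb4: ttcctgagcctgAAGGTCAgactcgagagg
Ndufs5: ctttctcgagtgTGACCTTgctcaagtagc
They lie at chr17:56717692-56717721 (plus strand) for Ndufa11, chr2:36049339-36049368 (minus strand) for Ndufa8, chr6:39592372-39592401 (plus strand) for Ndufb2, chr16:37654406-37654435 (minus strand) for Ndufb4 and chr4:123718397-123718426 (minus strand) for Ndufs5. Log2 fold changes of these genes were 0.46, 0.38, 0.63, 0.63 and 0.60 in the same order.

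The YY1 matches shared their place: all 5 lay on the strand of the gene, 23 to 36 bases after the start at their first base. The ATG in each is part of the motif searched. They are shown in 30 bases each, with the motif in capitals, because this placement was common to subunits of different modules.
Ndufa9: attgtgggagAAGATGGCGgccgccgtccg
Ndufc1: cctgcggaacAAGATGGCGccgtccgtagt
Ndufs4: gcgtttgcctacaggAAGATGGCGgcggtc
Ndufs6: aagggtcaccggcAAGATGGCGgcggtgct
Ndufs7: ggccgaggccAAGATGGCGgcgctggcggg
They lie at chr6:126849096-126849125 (minus strand) for Ndufa9, chr3:51408914-51408943 (minus strand) for Ndufc1, chr13:114388045-114388074 (minus strand) for Ndufs4, chr13:73328433-73328462 (minus strand) for Ndufs6 and chr10:80249463-80249492 (plus strand) for Ndufs7. The genes include the largest nuclear rise before trend removal, Ndufc1 at 0.95, and the smallest rise among those Q module members, Ndufa9 at 0.41. Ndufs4, Ndufs6 and Ndufs7 rose by 0.64, 0.44 and 0.49. A match describes these letters and is not a site shown to be bound.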

How the data were processed

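TRIzol was used to extract total RNA, per the labels' protocols, which do not say how mRNA was selected. For each of the 6 libraries the authors deposited expected counts by gene symbol, not scaled to depth. The submitters' processing notes list Trimmomatic 0.39, HISAT2, RSEM, DESeq2 and mm10 without roles. The annotation release and the strandedness are not given in the sources used here. As a rule RSEM divides reads that match several genes by an estimate, so members with near copies elsewhere, such as pseudogenes or nuclear copies of mtDNA, have an uncertain split. For 16 nuclear members, an annotated gene on the opposite strand overlaps. If counting ignored the strand, reads from the shared stretch cannot be told apart.

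Each table had 21763 rows. For the 22 rows that repeated a symbol, with 0.009% of counts, the row with the most counts was kept. Expected counts were rounded, since 8.92% to 10.1% of the genes above 0 were fractional. Groups were compared in edgeR 4.0.16 (R 4.3.3): filterByExpr with a minimum count of 10 and a minimum total of 15, TMM scaling, the quasi-likelihood F test without a block, and Benjamini-Hochberg adjustment over 12790 genes, called at 0.05. SE is the log2 fold change divided by the square root of F. All p-values called adjusted p beside a log2 fold change come from that fit. CPM were computed on TMM-scaled library sizes, where 1 count is 0.0492 to 0.0614 CPM before scaling. Nuclear members had at least 603 counts in each Adv-ABHD11 library and at least 514 in each Adv-NC library. Ratios were tested by two-sided exact permutation of log2 values. The edgeR test, but not the permutation test, was run on simulated data in which far fewer genes differed than were called here.

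Members, modules and lists were chosen with earlier results of these data known. Values per library are given by rule for the mtDNA-encoded and nuclear core members, any member that did not pass, in each module the 2 nuclear members with the largest and the 1 with the smallest change, Ndufa4, Ndufa4l2, and up to 4 assembly factors with the smallest adjusted p. Values of 1 member that falls under the rule are left out. Other genes named were chosen after their values were seen. Coordinates, lengths and GC content come from GENCODE M21 on GRCm38, where 1 member was found under another symbol: Ndufb1 is annotated there as a bidirectional promoter lncRNA.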

Additional observations from a re-analysis of the deposited data

How the results depend on the processing

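The counts of nuclear and mtDNA-encoded members called higher stayed within 1.5 times under all alternatives run: other scalings, DESeq2, no filter, mtDNA left out of the totals, the replicate block, removal of a trend on GC content and length, robust dispersion and each library left out. With libraries left out in turn, 35 to 36 nuclear members, 6 mtDNA-encoded members and 7 to 13 assembly factors were called, and the log2 medians ran from 0.493 to 0.611 (nuclear) and from 0.842 to 1.196 (mtDNA). With the GC and length trend removed, the mtDNA median was 0.498, mt-Nd3 passed as lower (-0.979) and Ndufa1 no longer passed. The log2 difference of mt-Nd over other mtDNA mRNAs was 0.240 on mean log2 CPM, -0.081 per kb and -0.512 without mt-Nd5 and mt-Nd6. That of nuclear complex I over complexes II to V was 0.009 on mean log2 CPM and 0.085 per kb. The mtDNA to nuclear ratio over all modules was 0.314 without mt-Nd5 and mt-Nd6, and membrane over matrix arm was 0.146 with Ndufab1 placed in the ND5 module. Left-out libraries gave log2 ranges of 0.457 to 0.798 for the mtDNA to nuclear ratio over all modules, 0.249 to 0.508 for ND1, 0.284 to 0.887 for ND2, 0.032 to 0.348 for ND4, 1.204 to 1.583 for ND5, -0.293 to -0.169 for mt-Nd over other mtDNA mRNAs, 0.110 to 0.145 for complex I over complexes II to V and 0.076 to 0.122 for membrane over matrix arm. Of the genes not called, mt-Nd3 ran from -0.579 to 0.152 with libraries left out and was 0.023 under upper-quartile scaling. Tmem186 ran from -0.085 to 0.010 and was 0.064 under that scaling. Ndufaf2 ran from -0.004 to 0.143 and Ndufaf4 from -0.021 to 0.221, and with the trend removed they were -0.081 and -0.197. The cause of each shift was not tested.

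The sources used here do not say whether same-numbered libraries of the groups share more than that number. Deviations of same-numbered libraries from their group means correlated at 0.010, 0.204 and -0.104 across genes. Those of differently numbered libraries correlated at -0.162 to 0.179. Paired by replicate number, the ratios had sign-flip p-values of 0.25 to 0.5, and 0.25 is the smallest possible with 3 pairs. With the replicate block, Ndufa7 passed (adjusted p = 0.0278). With block and trend removal together, the mtDNA median was 0.489, Ndufaf2 was at -0.081 and Ndufaf4 at -0.200. The lowest count of a member in any library was 508. Counting error alone was 0.403% to 3.65% of a member's mean count with Adv-ABHD11 and 0.525% to 4.02% with Adv-NC, and the coefficient of variation between libraries was under 2 times that for 2 and 4 of the 44 members, so that counting makes up much of the spread there. With 3 libraries per group, precision is limited.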
